A study of Mus musculus with 48 samples.

Results

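Liver RNA of C57BL/6J mice was compared between time 2 and time 1, with 3 arrays at each time, 6 of the 48 arrays of a study of liver, heart, spleen and lung in the inbred strains C57BL/6J and A/J. The arrays were taken by their titles, which name strain, tissue and time. Each array is an Affymetrix MG-U74Av2 array, on which a probe set is a group of short probes that read a transcript. No allele or treatment beyond the strain is named, and all mice were males 3 months old, described as littermates and biological replicates. The sources used here do not say what the times stand for, nor how many litters there were, so the p-values measure the spread between these animals. By the names of their scan files, liver and lung at time 1 form 1 of 4 sets of arrays, called runs here, and all tissues at time 2 form another. Time 2 and time 1 livers therefore differ in run as well, and time and run cannot be told apart within liver. Lung of C57BL/6J lies in the same runs as liver at both times, and so does liver of A/J.

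The liver makes and clears most circulating lipid, turns cholesterol into bile acids, oxidises fatty acids in fasting, detoxifies drugs and secretes the plasma proteins. Many of these programmes are set at the level of transcripts: SREBP2 raises the genes of cholesterol synthesis when sterol in the endoplasmic reticulum is low, PPAR alpha raises those of fatty acid oxidation, the receptors CAR and PXR raise cytochromes P450, and heat shock factor and the unfolded protein response raise chaperones. Transcripts of several of these programmes also rise and fall with feeding and with the hour of the day.

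Of the 12422 probe sets tested, 2493 (20.1%) were higher and 3428 (27.6%) were lower at time 2 than at time 1, by limma with Benjamini-Hochberg adjusted p below 0.05. Most differences were small: 66 of the higher and 7 of the lower probe sets reached 2-fold. Of all calls 42.1% were higher, against 53.7% after centring each array on its median, 46.9% after quantile and 52.8% after cyclic loess normalization. The differences followed the level of the transcript. Levels here are means over the 6 C57BL/6J liver arrays. Probe sets with a mean log2 level below 7 had a median difference of -0.17, and those at 12 or above had one of 0.24. The same groups of probe sets gave -0.09 and 0.09 in A/J liver, and 0.01 and -0.07 in C57BL/6J lung. Lung was thus ordered by liver level, so whether lung differences follow the level in lung was not tested. The values of an array spread more widely at time 2 (SD over probe sets 1.89 to 1.91) than at time 1 (1.78 to 1.81). The highest value of a liver array was 14.52 to 14.54 at time 2 and belonged to 1 probe set, against 14.35 to 14.36 at time 1, where 11 to 13 probe sets tied at it, so differences of transcripts at that ceiling have only a bound. Because of this relation, the pathway lists below are also counted after quantile normalization of the 6 arrays, which makes the spread equal.

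**Figure D1:**
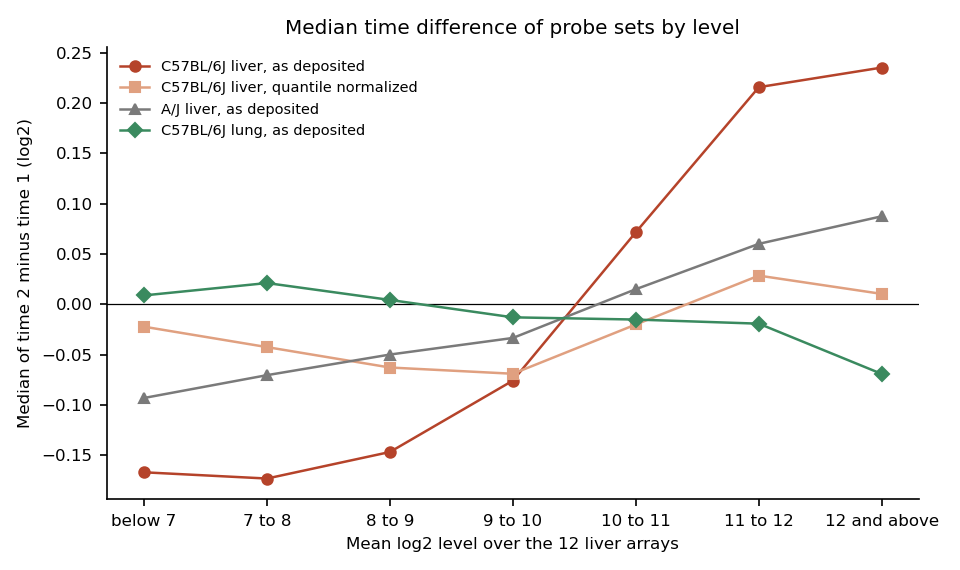
Median of the time 2 minus time 1 difference (log2, vertical axis) of probe sets grouped by their mean log2 level (horizontal axis), for C57BL/6J liver as deposited and quantile normalized, A/J liver and C57BL/6J lung. In every series the groups are set by the mean over the 6 C57BL/6J liver arrays, although the axis label names 12 liver arrays. In C57BL/6J liver as deposited the medians go from -0.17 below level 7 to 0.24 at level 12 and above. In C57BL/6J lung, not ordered by its own level, the medians of the same groups stay between -0.07 and 0.02.

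In the lists a gene is represented by its brightest probe set in liver, which gave 8251 genes. Of these, 1909 (23.1%) were called higher and 2080 (25.2%) lower as deposited, with a median difference of -0.06. After quantile normalization 1637 (19.8%) were called higher and 1686 (20.4%) lower, with a median of -0.02. A further test asked whether the time difference of liver departed from that of lung in C57BL/6J, in which a shift that a run gave both tissues equally cancels. It called 2915 probe sets (23.5%), with 1104 genes (13.4%) higher and 836 (10.1%) lower. The same question against A/J liver called 609 probe sets (4.90%), with 378 genes (4.58%) higher in the C57BL/6J difference and 85 (1.03%) lower. These percentages are the background for the counts of each list. With single liver arrays left out, 1930 to 2410 probe sets were called higher and 2119 to 3429 lower, against 2493 and 3428 with all 6. List counts given without an array are to be set beside this general change.

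Some arrays stood apart by their cell type markers and touch the results below. Time 2 liver replicate 2 held transcripts of the exocrine pancreas. Prss2, a trypsinogen, read 7.48, 13.70 and 7.32 at time 2, against 7.64, 7.89 and 7.96 at time 1, and the mean over 7 pancreas markers was 12.87 on that array against 9.16 to 9.60 on the other 5. No pancreas marker passed the test. Without that array 1652 genes (20.0%) were called higher and 1511 (18.3%) lower. In C57BL/6J lung, hepatocyte transcripts were higher in replicates 2 and 3 of time 1. Alb, which encodes albumin, read 9.44, 9.22 and 8.58 in lung at time 2, against 10.05, 12.06 and 12.46 at time 1, and the mean over 16 hepatocyte markers was 8.17 to 8.35 at time 2, against 8.32, 9.07 and 9.30 at time 1. A gene of hepatocytes thus gains in the liver minus lung comparison from lung arrays alone. With lung at time 1 represented by replicate 1 alone, that comparison called 727 genes (8.81%) higher and 403 (4.88%) lower, with the lone array assumed to vary like the other groups.

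**Figure D2:**
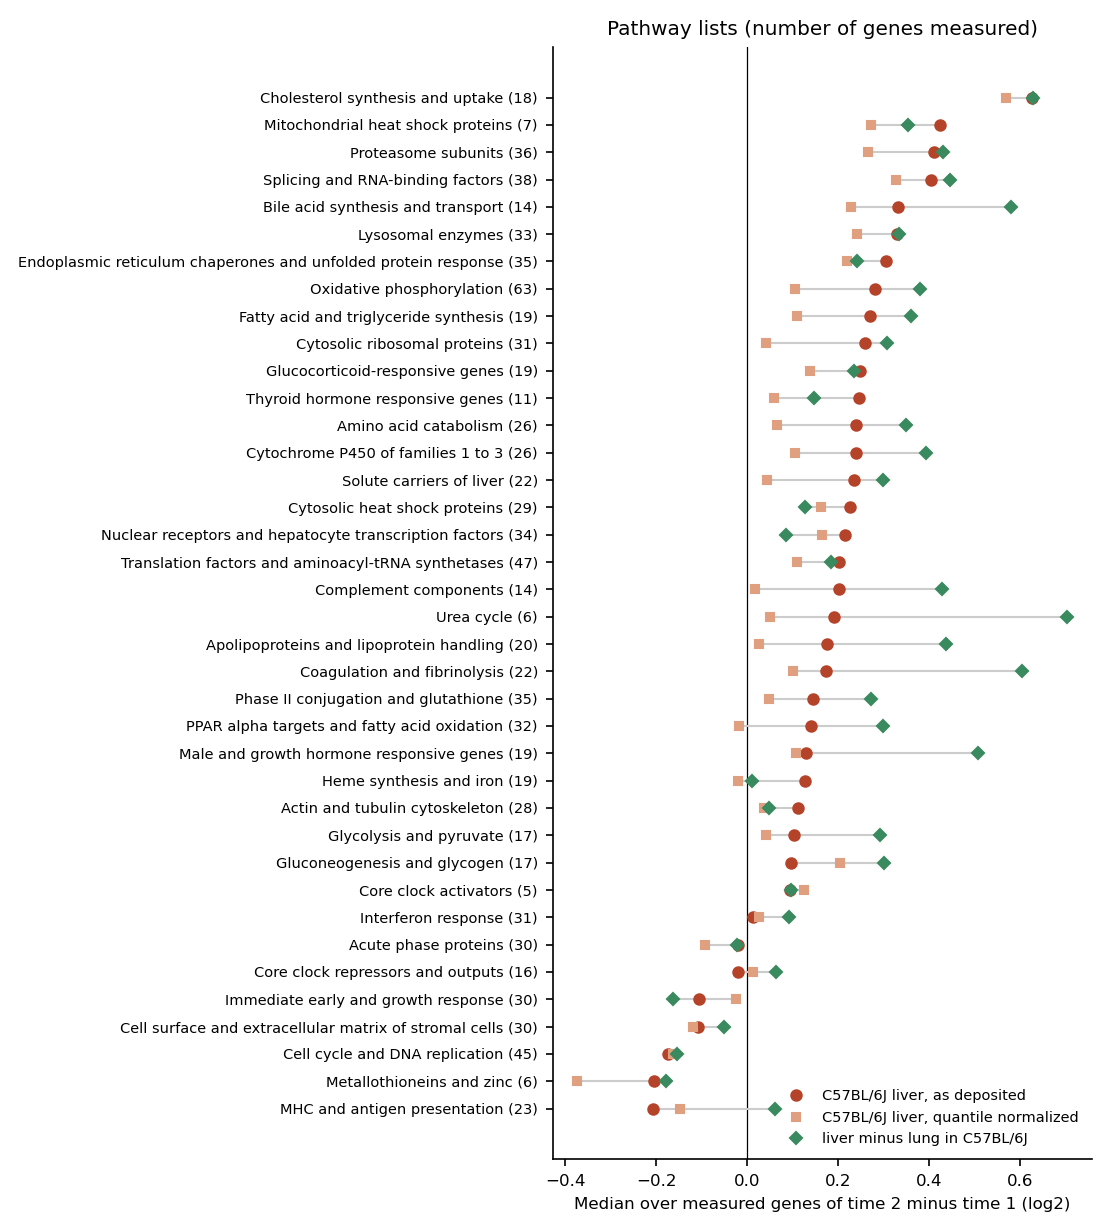
Median time 2 minus time 1 difference (log2, horizontal axis) over the measured genes of 38 pathway lists (rows, with the number of genes), as deposited, after quantile normalization, and in liver minus lung. Cholesterol synthesis lies at the top with 0.63 as deposited and 0.57 after quantile normalization, and MHC and antigen presentation at the bottom with -0.21.

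Genes of cholesterol synthesis were higher at time 2, from the first committed steps to the last reductions of the ring. Of 18 measured genes 12 rose and none fell, and the same counts held after quantile normalization and without the array with pancreas transcripts. The median difference of the list was 0.63 as deposited and 0.57 quantile normalized, against -0.06 and -0.02 over all genes. Against lung 10 of the 18 were called higher, and 6 with lung at time 1 represented by replicate 1 alone. Lung of C57BL/6J had a list median of -0.01.

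Msmo1, the sterol C4-methyl oxidase, had the highest difference in the list. It read 10.19, 9.82 and 10.79 at time 2, against 8.39, 8.54 and 8.21 at time 1, a difference of 1.88 ± 0.21 (log2, SE, adjusted p = 0.000874) or 3.69-fold. Idi1, which isomerises the 5-carbon isoprene unit, read 11.14, 10.37 and 11.29 at time 2, against 9.48, 9.38 and 9.23 at time 1, a difference of 1.57 ± 0.21 (adjusted p = 0.0014). In both genes the lowest time 2 array, replicate 2, still lay above every time 1 array. Hmgcs1, the cytosolic HMG-CoA synthase at the entry of the pathway, read 11.07, 11.08 and 11.80 at time 2, against 9.66, 10.004 and 9.98 at time 1 (1.43 ± 0.19, adjusted p = 0.00144). Sc5d, the lathosterol oxidase, read 9.66, 9.45 and 10.10 at time 2, against 8.72, 8.59 and 8.38 at time 1 (1.17 ± 0.16, adjusted p = 0.00152), and its other probe set gave 1.37. Cyp51, the lanosterol demethylase, read 9.58, 9.38 and 10.20 at time 2, against 9.08, 8.86 and 8.65 at time 1 (0.86 ± 0.20, adjusted p = 0.00926). Time 2 replicate 3 was the highest array for all 5 of these genes.

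The other genes that rose differed by 0.56 to 1.08. Fdps, which makes farnesyl diphosphate, rose by 1.08 by its brightest probe set and by 1.48 by another, but the remaining ones gave -0.53 (adjusted p = 0.0028) and 0.19, so its probe sets disagree. Acly, which supplies cytosolic acetyl-CoA, rose by 0.82, Dhcr7, the last reductase, by 0.69, Sqle, squalene epoxidase, by 0.64, Fdft1, squalene synthase, by 0.62, Nsdhl, a decarboxylating sterol dehydrogenase, by 0.61 and Ebp, the sterol isomerase, by 0.56. Hsd17b7 (0.38), Lss (0.09), Mvd (0.08), Tm7sf2 (0.05), Mvk (-0.05) and Insig1 (-0.05) did not pass the test. Insig1, the sterol sensor that holds SREBP2 in the endoplasmic reticulum, read 5.69 to 6.04 on all 6 arrays, in the lowest level group, below 7. Whether its probe set reads the transcript at that level was not tested. Tmem97, a regulator of NPC1 that is itself raised by SREBP2, is outside the list and had 12.02, 11.82 and 11.92 at time 2, against 10.79, 10.95 and 10.89 at time 1 (1.04 ± 0.08, adjusted p = 0.000442). Its difference exceeded that of lung by 0.96 (adjusted p = 0.00098).

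**Figure D3:**
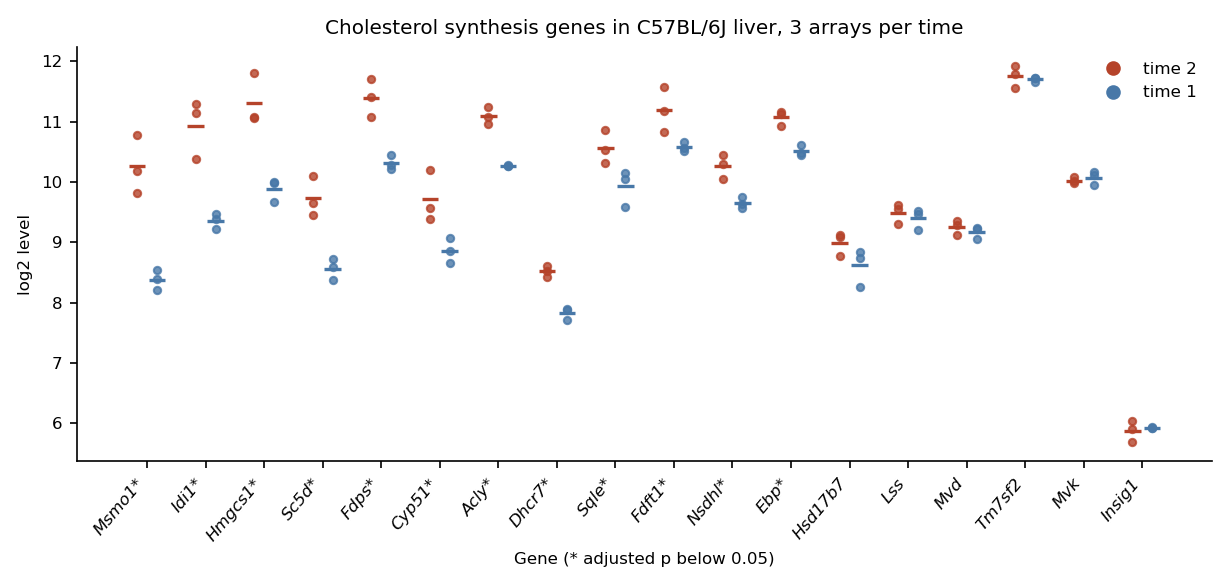
Log2 level (vertical axis) of the 18 measured cholesterol synthesis genes (horizontal axis) on each of the 3 time 2 and 3 time 1 arrays of C57BL/6J liver, with lines at the means. The 12 genes marked with an asterisk rose, by 0.56 (Ebp) to 1.88 (Msmo1).

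The promoters of 5 of these genes are shown because SREBP2 acts at such promoters together with the CCAAT-binding factor NF-Y. Each run gives the 150 bases before the transcript start in the sense of the gene, from RefSeq on GRCm38.p6. Capitals mark CCAAT on either strand (ATTGG where it lies on the other) and TCACNCCAC, the letters of the classic sterol regulatory element.
Msmo1, chr8:64733579-64733728, minus strand: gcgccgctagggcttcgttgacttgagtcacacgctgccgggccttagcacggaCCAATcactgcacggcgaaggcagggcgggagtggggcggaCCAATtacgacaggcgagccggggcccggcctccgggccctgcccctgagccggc
Idi1, chr13:8885456-8885605, plus strand: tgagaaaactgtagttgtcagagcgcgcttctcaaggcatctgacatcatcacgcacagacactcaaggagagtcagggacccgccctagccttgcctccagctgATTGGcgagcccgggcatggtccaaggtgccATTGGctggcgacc
Hmgcs1, chr13:119690201-119690350, plus strand: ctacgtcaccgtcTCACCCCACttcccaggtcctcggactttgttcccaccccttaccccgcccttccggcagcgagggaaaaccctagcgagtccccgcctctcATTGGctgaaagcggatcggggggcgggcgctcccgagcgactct
Sc5d, chr9:42264301-42264450, minus strand: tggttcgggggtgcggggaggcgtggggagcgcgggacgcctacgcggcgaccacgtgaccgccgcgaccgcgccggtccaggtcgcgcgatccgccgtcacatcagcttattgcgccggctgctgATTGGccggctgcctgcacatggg
Cyp51, chr5:4104698-4104847, minus strand: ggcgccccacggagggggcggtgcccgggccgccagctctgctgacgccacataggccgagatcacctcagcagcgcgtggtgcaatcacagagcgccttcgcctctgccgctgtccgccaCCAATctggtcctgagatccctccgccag
Each of the 5 windows held CCAAT, and Hmgcs1 held TCACNCCAC as well. Of the 18 genes 15 had a promoter in the table. All 15 held CCAAT within the 300 bases around the start, the 9 genes that rose and the 6 that did not pass the test alike, and 1 held TCACNCCAC. Over all 32851 promoters of the table, 37.4% held CCAAT and 1.24% held TCACNCCAC on either strand. The letters describe the windows and do not show binding.

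In A/J liver the time difference of the same list had a median of 0.95, with all 18 genes above 0. The C57BL/6J difference was lower than that of A/J for Dhcr7 (by 0.88, adjusted p = 0.0223) and Nsdhl (by 1.03, adjusted p = 0.00985), and no gene of the list had a larger one by the test. In the related list of fatty acid and triglyceride synthesis, 8 of 19 genes rose and 2 fell in C57BL/6J, and 4 rose and 2 fell after quantile normalization. Me1, malic enzyme, rose by 0.80 and Tkt, a transketolase of the pentose phosphate pathway, by 0.61, while Fasn, fatty acid synthase, rose by 0.52 as deposited but not after quantile normalization.

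Bile acid genes were also higher at time 2, including both oxysterol and cholesterol 7 alpha-hydroxylases. Of 14 measured genes 8 rose and none fell, and 5 rose after quantile normalization, with medians of 0.33 and 0.23. Against lung 7 of 14 were called higher, but 1 with lung at time 1 represented by replicate 1 alone. Cyp7a1, the rate-limiting enzyme of bile acid synthesis, read 11.13, 9.82 and 10.09 at time 2, against 9.20, 8.94 and 9.14 at time 1 (1.25 ± 0.28, adjusted p = 0.00843), or 2.38-fold. Cyp7b1, the oxysterol 7 alpha-hydroxylase, read 12.13, 11.16 and 11.61 at time 2, against 10.64, 10.72 and 10.24 at time 1 (1.102 ± 0.23, adjusted p = 0.00579). In both genes time 2 replicate 1 was the highest array, and the times did not overlap.

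Baat, which joins bile acids to taurine or glycine, had a nearly constant level at time 2, of 13.03, 13.03 and 13.02, against 11.96, 12.36 and 11.87 at time 1 (0.96 ± 0.12, adjusted p = 0.00122). Abcc2, which exports conjugates into bile, rose by 0.85 and Abcb4, which exports phospholipid into bile, by 0.66. Hsd3b7 and Cyp8b1, enzymes of the later steps, rose by 0.62 and 0.39 as deposited but not after quantile normalization. Nr0b2, which encodes the repressor SHP that lowers Cyp7a1, had a difference of -0.34 (adjusted p = 0.148). The A/J differences of Cyp7a1, Cyp7b1 and Abcb4 were -0.09, -0.26 and -0.40. The test of the difference between strains passed for Cyp7b1 (1.37, adjusted p = 0.0196) and Abcb4 (1.06, adjusted p = 0.00301) but not for Cyp7a1 (1.34, adjusted p = 0.125).

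Among cytochromes P450 of families 1 to 3 and their regulators, 12 of 26 genes rose and 2 fell, with 5 and 1 after quantile normalization. Cyp2b10, the classic target of CAR, read 11.58, 11.78 and 11.83 at time 2, against 9.99, 10.53 and 9.83 at time 1 (1.61 ± 0.17, adjusted p = 0.000673), or 3.06-fold. Ahr, the aryl hydrocarbon receptor, read 9.61, 9.02 and 9.44 at time 2, against 8.17, 8.09 and 7.86 at time 1 (1.32 ± 0.15, adjusted p = 0.00088). Cyp2c70, which makes muricholic acids in mice, rose by 1.19 and Cyp2c29 by 0.88, and neither lost its call after quantile normalization. Nr1i3, which encodes CAR, had 0.48 by the probe set with the highest level and 0.07 and 0.25 by the other probe sets, which did not pass. Cyp2b9, a relative of Cyp2b10, separated the strains. Its C57BL/6J difference of -0.22 was called as deposited but not after quantile normalization (-0.12, adjusted p = 0.195). Cyp2b9 read 7.87, 7.84 and 7.84 at time 2 in C57BL/6J, against 8.06, 8.11 and 8.04 at time 1. Livers of A/J had 11.48, 11.30 and 10.93 at time 2, against 8.97, 8.56 and 8.49 at time 1. The difference between the strains' time differences was -2.78 (adjusted p = 1.23e-05).

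Of 35 genes of conjugation and glutathione, 12 rose and 4 fell, with 8 and 3 after quantile normalization. Sult1d1, a sulfotransferase, rose by 0.91, Mgst1, a microsomal glutathione transferase, by 0.83, and Gpx1, glutathione peroxidase, fell by 0.48. The lung difference of Mgst1 was 0.67, and its liver minus lung difference of 0.16 did not pass (adjusted p = 0.648).

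Genes of fatty acid oxidation, most of them targets of PPAR alpha, were nearly level in C57BL/6J liver and lower at time 2 in A/J liver. Of 32 measured genes, 10 rose and 1 fell in C57BL/6J as deposited, with a median of 0.14, and 1 rose and 6 fell after quantile normalization, with a median of -0.02. The direction of these calls in C57BL/6J thus rests on the scaling, and 3 rose without time 2 replicate 1 or time 1 replicate 1, and 6 without time 1 replicate 3. In A/J the median was -0.58, with 28 of 32 genes below 0. The test of the difference between strains called 25 of the 32 higher in the C57BL/6J difference and none lower, against 4.58% and 1.03% of all genes.

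Vnn1, a pantetheinase raised by PPAR alpha, read 10.74, 10.36 and 10.93 at time 2 in C57BL/6J, against 10.26, 10.70 and 10.63 at time 1. In A/J it read 7.94, 8.54 and 8.85 at time 2, against 10.74, 10.55 and 11.04 at time 1, so the strains differed by 2.48 in their time difference (adjusted p = 0.00121). The A/J time 2 livers were the low group, and the other groups overlapped. Acot1, an acyl-CoA thioesterase, was the gene of the list that fell in C57BL/6J, by 0.53, and it had an A/J difference of -2.49. Ehhadh, the peroxisomal bifunctional enzyme, had -0.29 in C57BL/6J and -1.86 in A/J (difference between strains 1.57, adjusted p = 0.0113). Cyp4a14, a fatty acid hydroxylase, had 0.13 and -1.53 (1.67, adjusted p = 0.00731).

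Ppara itself rose in C57BL/6J, with 12.04, 11.77 and 12.10 at time 2, against 11.38, 11.64 and 11.42 at time 1 (0.49 ± 0.11, adjusted p = 0.00848), and had -0.57 in A/J. Its difference between strains was 1.06 (adjusted p = 0.00329). After quantile normalization its C57BL/6J difference was 0.26 and did not pass. Cpt1a, the carnitine transferase that admits fatty acids to mitochondria, had 0.26 in C57BL/6J and -0.37 in A/J (0.62, adjusted p = 0.0109). Slc27a2, a fatty acid transporter, rose in C57BL/6J under both scalings, by 0.66 and 0.36. In C57BL/6J lung the list median was -0.16, and the 8 genes called higher in liver minus lung include ones whose lung level was lower at time 2, such as Cyp4a10 (-1.25).

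**Figure D4:**
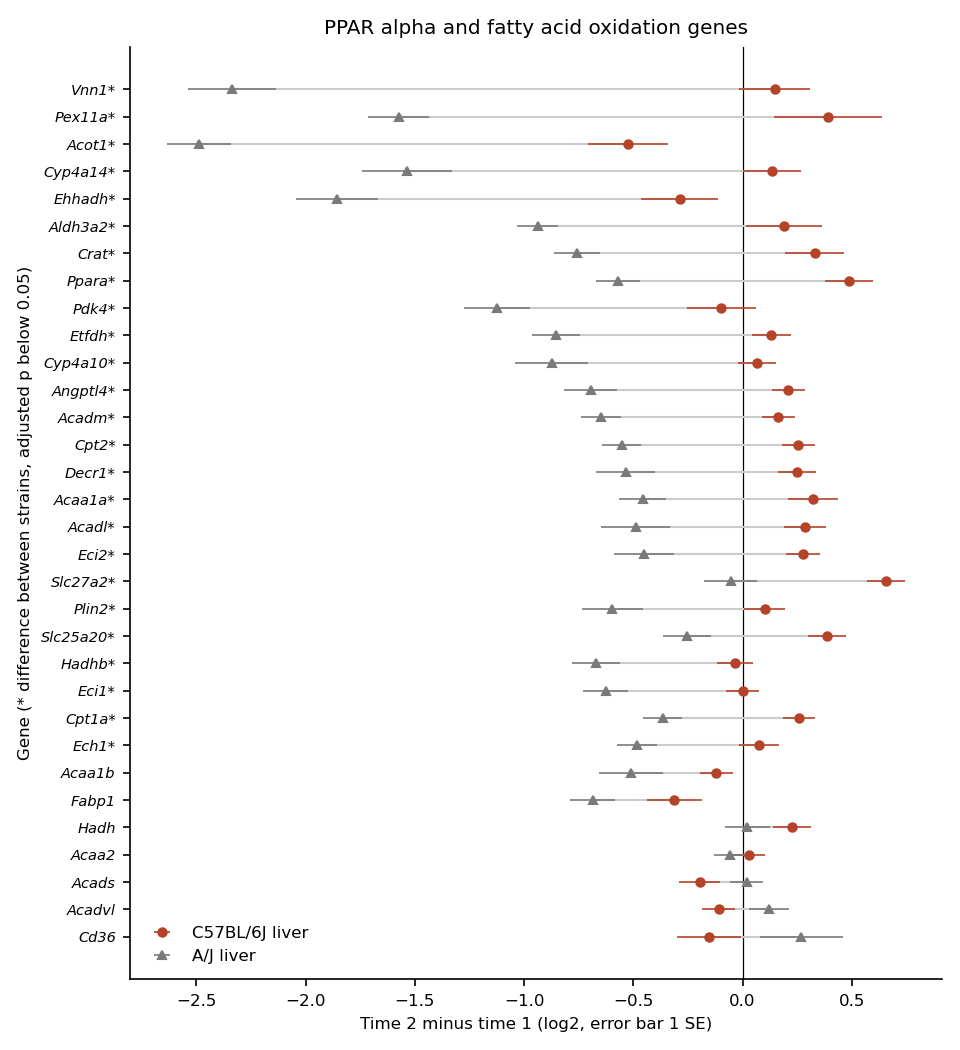
Time 2 minus time 1 difference (log2, horizontal axis, error bars 1 SE) of the 32 measured genes of fatty acid oxidation (rows) in C57BL/6J liver and A/J liver, ordered by the difference between strains. The 25 genes with an asterisk passed the test of that difference, led by Vnn1 (0.15 in C57BL/6J and -2.34 in A/J), and no C57BL/6J value lies below that of Acot1, at -0.53.

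Chaperones were higher at time 2 in the cytosol, the mitochondrion and the endoplasmic reticulum. Of 29 cytosolic heat shock genes 15 rose and 4 fell, with 10 and 3 after quantile normalization, and of 7 mitochondrial ones 5 rose and none fell, with 4 and none after quantile normalization. Hspa1b, the inducible HSP70, read 9.98, 10.29 and 9.61 at time 2, against 9.10, 8.65 and 8.15 at time 1 (1.33 ± 0.24, adjusted p = 0.00347), or 2.51-fold. Hsph1, its nucleotide exchange factor, rose by 0.75, Bag3, a co-chaperone of HSP70, by 0.60 and Cct8, a subunit of the actin and tubulin folding ring, by 0.59. Dnaja1, an HSP40, rose by 0.53, Hspa8, the constitutive HSP70, by 0.51 (0.34 after quantile normalization, not called) and Stip1, which links HSP70 to HSP90, by 0.45. The small heat shock proteins Cryab and Hspb1 fell, by 0.53 and 0.43, and Hspb1 did not keep its call after quantile normalization (adjusted p = 0.13).

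Hsp90aa1, the inducible HSP90, separated the strains. It read 11.75, 11.82 and 11.63 at time 2 in C57BL/6J, against 11.32, 11.29 and 11.14 at time 1. In A/J it read 10.83, 10.73 and 10.87 at time 2, against 11.84, 11.78 and 11.74 at time 1. The difference between strains was 1.46 (adjusted p = 1.95e-05), although its other probe set had a C57BL/6J difference of 0.13, which did not pass. In all, 10 of the 29 cytosolic genes were called higher in the C57BL/6J difference than in that of A/J and none lower, and the A/J median was -0.16. Against lung 7 of the cytosolic genes were called higher and 3 lower. Of the 7 mitochondrial genes 2 were called higher and none lower against lung, with a median of 0.35. The lung differences of Hspa1b and Hsph1 were 0.51 and 0.66, and their liver minus lung differences did not pass (adjusted p = 0.067 and 0.81).

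In the endoplasmic reticulum 17 of 35 genes rose and 1 fell, with 13 and 2 after quantile normalization, and 11 rose without time 2 replicate 3. Against lung 9 of the 35 were called higher and 1 lower, with a median of 0.24. Hspa5, the chaperone BiP and a target of the unfolded protein response, read 12.88, 12.71 and 13.01 at time 2, against 11.87, 12.15 and 11.86 at time 1 (0.90 ± 0.11, adjusted p = 0.00108), or 1.87-fold. Dnajb9 and Dnajb11, co-chaperones of BiP, rose by 0.75 and 0.68. Manf, a secreted survival factor of the same response, rose by 0.66 and Xbp1, one of its transcription factors, by 0.62. Pdia3, a disulfide isomerase, rose by 0.78 with overlapping times and lost its call after quantile normalization. Hsp90b1, the reticulum's HSP90, and Calr, calreticulin, did not pass (0.14 and -0.11). Against A/J, Hspa5 (1.06, adjusted p = 0.00301), Manf (0.82, adjusted p = 0.0313) and Dnajb11 (0.98, adjusted p = 0.0428) had larger differences in C57BL/6J.

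Subunits of the proteasome, which degrades ubiquitinated proteins, were higher at time 2 in both its core and its cap. Of 36 genes 24 rose and 2 fell as deposited, 19 and none after quantile normalization, with medians of 0.41 and 0.27. Against lung 19 were called higher and none lower, and 18 with lung at time 1 represented by replicate 1 alone. Psmc2, an ATPase of the cap, read 11.14, 10.95 and 10.95 at time 2, against 10.01, 10.21 and 10.04 at time 1 (0.93 ± 0.09, adjusted p = 0.000575). Psma3, of the core ring, read 12.51, 12.48 and 12.56 at time 2, against 11.57, 11.65 and 11.76 at time 1, a difference of 0.86. Psma7, of the same ring, read 11.46, 11.54 and 11.54 at time 2, against 10.73 on all 3 arrays at time 1, a difference of 0.78. In these genes the gap between the times was larger than the spread within either. Of the subunits of the immunoproteasome, Psmb9 rose by 0.40, while Psmb8 (0.36) and Psmb10 (0.06) did not pass. Psmd11, of the cap, rose by 0.72 and 0.60 by 2 of its probe sets, while another gave -0.38 (adjusted p = 0.0069).

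Splicing and RNA-binding factors followed the same course, with 26 of 38 genes called higher and 2 lower, 23 and 2 after quantile normalization, and 16 and none against lung. Their medians were 0.40 as deposited, 0.33 quantile normalized, and 0.03 in A/J. Hnrnpa2b1, an hnRNP that binds exons and 3′ ends, read 10.79, 10.84 and 10.87 at time 2, against 9.89, 9.91 and 9.98 at time 1 (0.90 ± 0.07, adjusted p = 0.000442). Hnrnph1, a splicing regulator that binds runs of G, read 9.97, 10.03 and 9.93 at time 2, against 9.23, 9.22 and 8.98 at time 1 (0.83 ± 0.09, adjusted p = 0.000729). Tra2b, an activator of exon inclusion, rose by 0.71, Rbm39, a coactivator of splicing, by 0.67 and Clk1, a kinase of SR proteins, by 0.62. Against A/J, 10 genes of this list had a larger difference in C57BL/6J and none a smaller one, among them Hnrnph1 (0.61, adjusted p = 0.0432), Tra2b (0.56, adjusted p = 0.0104) and Clk1 (0.52, adjusted p = 0.0267).

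Of 33 lysosomal genes 23 rose and none fell, with 15 and 2 after quantile normalization and 11 and none against lung, and 15 rose without time 2 replicate 3 or time 1 replicate 2. Laptm4a, a lysosomal membrane protein, read 13.14, 13.09 and 13.15 at time 2, against 12.17, 12.07 and 11.89 at time 1 (1.08 ± 0.09, adjusted p = 0.000442), or 2.12-fold. Npc1, which moves cholesterol out of lysosomes, read 11.98, 11.99 and 11.87 at time 2, against 11.09, 11.26 and 10.86 at time 1 (0.88 ± 0.11, adjusted p = 0.0011). Lamp2, a membrane protein of lysosomes, rose by 0.88, Ctsz, a carboxypeptidase, by 0.70, Tpp1, a peptidase, by 0.57 and Lipa, the acid lipase, by 0.50. Psap, the precursor of the saposins, rose by 0.59 in liver and had 0.57 in lung, with a liver minus lung difference of 0.02, and its other probe sets gave 1.098 and -0.12.

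Oxidative phosphorylation and ribosomal proteins had many small differences that the scaling changed. Of 63 respiratory chain genes 36 rose and 6 fell as deposited, but 12 and 6 after quantile normalization, with medians of 0.28 and 0.10. Ndufb6, of complex I, rose by 0.67 (0.44 quantile normalized) and Atp5e, of the ATP synthase, by 0.65 (0.42). Of 31 ribosomal protein genes 17 rose and 6 fell as deposited, and 6 and 4 after quantile normalization, and 3 fell without time 2 replicate 2 or time 1 replicate 1. These genes lie at high levels, where the median over all probe sets was also above 0. Among 47 translation factors and aminoacyl-tRNA synthetases 21 rose and 5 fell, with 14 and 5 after quantile normalization, and 2 fell without time 2 replicate 2 or 3, and 3 without time 1 replicate 1 or 2. Eprs, the glutamyl-prolyl-tRNA synthetase, rose by 0.84, Eif3a, a subunit of initiation factor eIF3, by 0.52 and Gars, the glycyl-tRNA synthetase, by 0.50, while Yars, the tyrosyl-tRNA synthetase, fell by 0.56.

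Among plasma protein genes of hepatocytes, the acute phase list held both directions. Complement, coagulation and apolipoprotein genes had more rises than falls as deposited, but after quantile normalization rose about as often as all genes. Of 30 acute phase genes 10 rose and 8 fell, with 4 and 9 after quantile normalization, and 6 rose without time 2 replicate 3 or time 1 replicate 1. Ttr, which encodes the thyroxine carrier transthyretin, read 12.06, 12.25 and 12.37 at time 2, against 10.99, 10.87 and 10.83 at time 1 (1.33 ± 0.10, adjusted p = 0.000394). Klkb1, plasma prekallikrein, read 9.61, 9.39 and 9.88 at time 2, against 8.005, 8.11 and 8.45 at time 1 (1.44 ± 0.15, adjusted p = 0.000673). Masp1, a protease of the lectin pathway of complement, rose by 1.19 and C1ra by 0.92, while Cfb, complement factor B, fell by 0.53. Of 14 complement genes 5 rose and 1 fell, with 3 and 1 after quantile normalization. Of 22 coagulation genes 9 rose and 1 fell, with 5 and 1 after quantile normalization and 7 and 4 after cyclic loess. Of 20 apolipoprotein and lipoprotein genes 7 rose and none fell, with 3 and none after quantile normalization. Over all genes 19.8% rose after quantile normalization. The median levels of these 3 lists were 11.14, 12.11 and 12.48, where the median difference over all probe sets was also above 0 as deposited. Apob, the scaffold of VLDL, rose by 0.73 under the first scaling and 0.61 under the second. The hepatocyte markers Alb, Apoa1 and Ahsg lay at or near the ceiling of the arrays (14.10 to 14.48 on all 6), so their differences of 0.05, 0.07 and 0.02 have only a bound.

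Of 17 genes of gluconeogenesis and glycogen 5 rose and none fell, with 3 and none after quantile normalization and a median of 0.10. Slc37a4, the glucose 6-phosphate carrier, rose by 0.91 and Gcgr, the glucagon receptor, by 0.66. Of 26 genes of amino acid catabolism 11 rose and 2 fell, with 6 and 2 after quantile normalization, and 7 rose without time 2 replicate 3 or time 1 replicate 1. Agxt, alanine-glyoxylate aminotransferase, rose by 0.76, Bckdhb, of the branched-chain ketoacid dehydrogenase, by 0.70 and Hal, histidase, by 0.61. Of 6 urea cycle genes 3 rose and 1 fell, with 1 and 1 after quantile normalization, where Otc kept its call. Otc, ornithine transcarbamylase, rose by 0.59, Slc25a15, the ornithine carrier, by 0.57 and Cps1, the first enzyme, by 0.27 as deposited, against -0.0048 after cyclic loess. Ass1 (-0.17) and Arg1 (0.11) did not pass. Asl, argininosuccinate lyase, fell by 0.44 by the probe set with the highest level and rose by 1.27 by another, so it has no settled direction. Among 19 genes of male pattern and growth hormone response 8 rose and 2 fell, with 4 and 2 after quantile normalization. Serpina12, the adipokine vaspin, read 9.93, 9.66 and 10.27 at time 2, against 7.86, 9.16 and 8.18 at time 1 (1.55 ± 0.30, adjusted p = 0.00457). Elovl3, a fatty acid elongase, rose by 0.86 and Ghr, the growth hormone receptor, by 0.77. Bcl6, a repressor that growth hormone controls in liver, read 9.52, 8.55 and 9.94 at time 2, against 8.04, 7.74 and 7.79 at time 1 (1.48 ± 0.29, adjusted p = 0.00505). It had -0.51 in A/J, with a difference between strains of 1.99 (adjusted p = 0.0338).

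Metallothioneins, which bind zinc and copper and are raised by metals and glucocorticoids, fell. Of the 6 genes of metallothioneins and zinc 3 fell and none rose, with 4 and none after quantile normalization. Mt1 read 12.61, 12.91 and 12.88 at time 2, against 13.66, 13.88 and 13.55 at time 1 (-0.89 ± 0.11, adjusted p = 0.00122). Mt2 read 11.61, 12.18 and 12.30 at time 2, against 13.11, 13.14 and 12.90 at time 1 (-1.02 ± 0.17, adjusted p = 0.00257), or 2.02-fold lower. The times did not overlap for either gene. Mt3, known as the brain form, fell by 0.27, while Mtf1, the zinc-sensing transcription factor (-0.14), Slc30a1, a zinc exporter (-0.06), and Slc39a4, a zinc importer (-0.04), did not pass. Livers of A/J had differences of 0.03 for Mt1 and 0.11 for Mt2, and the test between strains passed for Mt1 (-0.93, adjusted p = 0.0109) but not for Mt2 (-1.13, adjusted p = 0.0645). The liver minus lung difference was -0.71 for Mt1 (adjusted p = 0.0291) and -1.13 for Mt2 (adjusted p = 0.00553). Of 19 glucocorticoid-responsive genes 4 rose and 4 fell, with 2 and 3 after quantile normalization, and 8 rose without time 1 replicate 1. Cebpb, a transcription factor of the acute phase, rose by 0.73 and Nfkbia, the inhibitor of NF-kappa B, by 0.44.

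**Figure D5:**
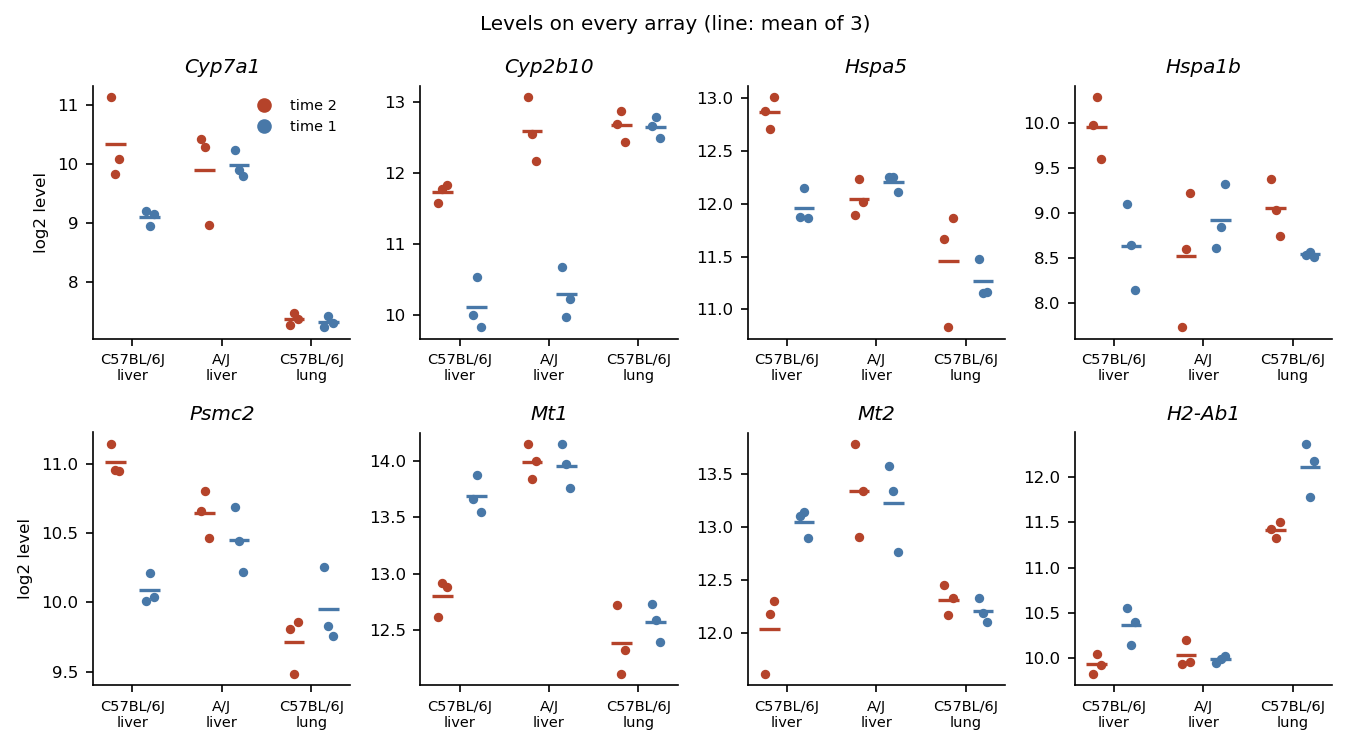
Log2 level (vertical axes) of 8 genes on every array of C57BL/6J liver, A/J liver and C57BL/6J lung at time 2 and time 1, with lines at the means of 3. Cyp7a1, Cyp2b10, Hspa5, Hspa1b and Psmc2 are higher and Mt1, Mt2 and H2-Ab1 lower at time 2 in C57BL/6J liver with no overlap between the times, whereas in A/J liver the Mt1 and Mt2 values of the times overlap.

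Among antigen presentation genes more fell than rose in C57BL/6J liver. Of 23 genes 4 rose and 10 fell, with 1 and 11 after quantile normalization, and 5 and 6 without the array with pancreas transcripts. The count of falls was 3 without time 2 replicate 3, 4 without time 1 replicate 1 and 6 without time 1 replicate 2 or 3. Against lung 6 were called higher and 3 lower, or 4 and none with lung at time 1 represented by replicate 1 alone, and A/J liver had a median of 0.22 with 16 of 23 above 0. H2-Ab1, a class II chain, read 9.83, 10.04 and 9.92 at time 2, against 10.55, 10.14 and 10.40 at time 1 (-0.43 ± 0.11, adjusted p = 0.0145). Ciita, the class II activator, read 8.85, 8.77 and 8.80 at time 2, against 9.20, 9.26 and 9.11 at time 1 (-0.38 ± 0.07, adjusted p = 0.00474). H2-Eb1, another class II chain, fell by 0.34, and Cd74, the invariant chain, by 0.54 with overlapping times, while H2-Aa (-0.50) did not pass. B2m, the light chain of class I, rose by 0.38 as deposited but not after quantile normalization. Class II differences in lung were of similar size (-0.69 for H2-Ab1 and -0.40 for H2-Eb1), and neither gene passed in liver minus lung (adjusted p = 0.33 and 0.84).

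Markers of white blood cells were lower as well. Of 9 neutrophil markers 8 fell and none rose, with 5 after quantile normalization. B cell markers gave 6 of 8, T cell markers 5 of 9 and NK cell markers 4 of 7 lower, with 5, 3 and 3 after quantile normalization, and none of these rose. Without single arrays 5 to 7 neutrophil, 3 to 6 B cell and 3 to 4 T cell markers fell, with the lowest B cell count without time 2 replicate 3 or time 1 replicate 1, the lowest neutrophil count without time 2 replicate 1, time 1 replicate 1 or time 1 replicate 3, and the lowest T cell count without time 2 replicate 2, time 2 replicate 3, time 1 replicate 1 or time 1 replicate 3. Ngp, a granule protein of neutrophils, read 8.35, 8.45 and 8.41 at time 2, against 8.99, 8.97 and 8.99 at time 1 (-0.58 ± 0.07, adjusted p = 0.00108). Ms4a1, which encodes CD20 of B cells, read 10.29, 10.36 and 10.36 at time 2, against 10.81, 11.02 and 10.68 at time 1 (-0.50 ± 0.10, adjusted p = 0.00441). The mean over the 9 neutrophil markers was 8.37 to 8.41 at time 2, against 8.67 to 8.83 at time 1, and over the 8 B cell markers 9.17 to 9.21 at time 2, against 9.43 to 9.58 at time 1. In heart the same neutrophil mean lay between 8.39 and 8.75 over both strains and times, and at such levels the median over all probe sets in C57BL/6J liver was also below 0. What part of the falls goes with level was not tested. Against lung 1 of the 9 neutrophil and none of the 8 B cell markers were called lower, and lung itself had medians of -0.21 and -0.18. In A/J liver 8 of 9 neutrophil, 7 of 8 B cell, 6 of 7 NK cell and 4 of 9 T cell markers were below 0. Their A/J medians were -0.11, -0.14, -0.11 and 0.02, and no marker of these lists was called in C57BL/6J minus A/J. In bulk tissue, fewer cells of a type and less RNA per cell cannot be told apart. Erythroid markers had 2 of 10 called higher and 4 lower, with a median of -0.10, and bile duct markers had none higher and 3 of 7 lower, with -0.30. Markers of tissues other than liver had falls too, with 6 of 16 muscle markers lower and 2 higher (median -0.19, and 3 lower without time 2 replicate 3) and 2 of 6 lung epithelium markers lower (median -0.23). Kupffer cell markers had 1 of 12 called higher (Lyz2, lysozyme, 0.58) and 1 lower (Mpeg1, a macrophage perforin, -0.32).

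Of 30 stromal surface and matrix genes 2 rose and 9 fell, with 2 and 10 after quantile normalization and 2 and 6 without the array with pancreas transcripts. Without time 2 replicate 3, 5 fell. Col1a2, a chain of type I collagen, read 11.12, 11.17 and 11.03 at time 2, against 11.76, 11.69 and 11.67 at time 1 (-0.60 ± 0.07, adjusted p = 0.00112), and its other probe set gave -0.33 (adjusted p = 0.0088). Fbln1, fibulin 1, fell by 0.48, and Timp3, an inhibitor of metalloproteinases, rose by 0.52. Among 45 cell cycle genes 2 rose and 15 fell, with 4 and 12 after quantile normalization, and 8 fell without time 2 replicate 1, 6 without time 2 replicate 3 and 7 without time 1 replicate 1. Mki67, a marker of cycling cells, read 8.98, 8.85 and 8.81 at time 2, against 9.37, 9.38 and 9.40 at time 1 (-0.51 ± 0.08, adjusted p = 0.00199), while its other probe set gave 0.02. Cks2, a subunit of cyclin-dependent kinases, rose by 0.75 and Pcna, the clamp of DNA polymerase, by 0.33.

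Genes of early and growth response had both directions, with 8 of 30 higher and 9 lower, and 8 and 3 after quantile normalization. The count of falls changed with single arrays left out. It was 2, 1 and 0 without time 2 replicates 1, 2 and 3, and 3 and 4 without time 1 replicates 1 and 2. Over all probe sets the lower calls, 3428 with every array, were 2720, 2561 and 2119 without those time 2 arrays. They were 2602 and 2408 without those time 1 arrays. Gadd45b, a stress-induced growth regulator, read 9.41, 9.41 and 9.34 at time 2, against 8.67, 8.47 and 8.74 at time 1 (0.76 ± 0.09, adjusted p = 0.00095), and its other probe set gave 0.86. Btg1, an antiproliferative gene, rose by 0.83 and had -0.41 in A/J (difference between strains 1.23, adjusted p = 0.00355). Jund, a subunit of AP-1, rose by 0.70. Egr1, an immediate early transcription factor, rose by 0.43 by its brightest probe set and fell by 0.48 by another, so it has no settled direction.

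Among 5 activators of the core loop of the circadian clock and their regulators 1 rose and none fell, with 1 and 1 after quantile normalization. Clock rose by 0.31 (adjusted p = 0.00954), while Arntl, the partner of CLOCK, read 9.52, 9.26 and 9.02 at time 2, against 9.33, 9.04 and 9.14 at time 1 (0.10 ± 0.13, adjusted p = 0.564). Rora (0.23), Npas2 (-0.16) and Nfil3 (-0.25) did not pass. Among 16 repressors and outputs 1 rose and 4 fell, with 1 and 3 after quantile normalization. Nampt, which makes the NAD precursor, rose by 0.40, and Timeless (-0.45), Wee1 (-0.41), Cry2 (-0.34) and Tef (-0.27) fell. Dbp, an output whose transcript swings widely over the day in mouse liver, read 7.57, 7.67 and 8.07 at time 2, against 7.08, 7.72 and 7.46 at time 1 (0.35 ± 0.17, adjusted p = 0.128). Nr1d1, which encodes REV-ERB alpha, had 0.48 ± 0.21 (adjusted p = 0.0865) and its relative Nr1d2 0.45. Per1, Per2 and Per3, Cry1, Usp2, Bhlhe40, Csnk1d and Csnk1e had differences of -0.23 to 0.08, none past the test. The SE was 0.17 for Dbp and 0.21 for Nr1d1, so differences of that order were not detectable with 3 arrays at each time.

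By size alone, the 15 genes with the largest rises (1.40 to 3.83) included many outside these programmes. 1110032A03Rik and Pcsk5 were read by probe sets of the kind marked _r_at, for which some rules of probe selection were dropped. 1110032A03Rik, a gene with no name here, read 9.83, 9.87 and 9.98 at time 2, against 6.56, 6.06 and 5.57 at time 1 (3.83 ± 0.21, adjusted p = 8.22e-05), or 14.2-fold. Anp32a, an inhibitor of protein phosphatase 2A, read 10.72, 10.92 and 10.92 at time 2, against 8.21, 8.37 and 8.32 at time 1 (2.55 ± 0.09, adjusted p = 5.49e-06). Mrm3, a mitochondrial rRNA methyltransferase, rose by 2.29, Erdr1 by 2.18, Dynll2, a dynein light chain, by 1.91, Ppp1cb, a catalytic subunit of protein phosphatase 1, by 1.43 and Pcsk5, a proprotein convertase, by 1.40. In lung the differences were 2.02 for Anp32a, 1.501 for Dynll2, 1.67 for Pcsk5, 1.37 for Erdr1 and 1.21 for 1110032A03Rik. Of the 15, 10 also passed liver minus lung in the same direction, among them 1110032A03Rik (2.62), Mrm3 (1.09) and Ppp1cb (1.21), and Anp32a, Erdr1, Dynll2, Bcl6 and Pcsk5 did not. Of 6 with another probe set, 2 had another one called in the same direction. The brightest probe set gave 0.58 for Anp32a, -0.06 for Mrm3 and -0.05 for Pcsk5, and the dimmer one gave -0.12 for Erdr1 and 0.17 for Dynll2.

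The 15 genes with the largest falls had differences of -1.28 to -0.86, and 11 were read by an _r_at probe set. Of 901 such sets 45.3% were called lower, against 25.4% of the 9614 sets with no such mark. Of 11 with another probe set, none had another one called in the same direction. Tgfbi, a matrix protein, fell by 1.28 by a probe set at 5.78 to 7.36, while its brightest probe set gave -0.02, and Dusp6, a MAP kinase phosphatase, fell by 1.097 by 1 set and rose by 0.60 by its brightest. The remaining falls of this group were of Tbcel (-1.20), Kap (-1.18), Wbp11 (-1.04), Ldah (-0.98), C8g (-0.95), Mrpl36 (-0.90), Ncoa4 (-0.90), Psme1 (-0.89), Lamb1 (-0.88), Sox2 (-0.87) and Pald1 (-0.86), beside Mt1 and Mt2. For Psme1, a proteasome activator, the brightest probe set had 0.32 and did not pass, and for Ldah, a lipid droplet hydrolase, it rose by 0.46. Mt1, Mt2, Kap and Lamb1 were the 4 of these genes not read by an _r_at set.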

How the data were processed

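RNA of each tissue was hybridised to MG-U74Av2 arrays, from about 20 ug total RNA extracted with Trizol, per the labels' protocols. The values are log2 levels as deposited by the authors in the series table, 1 column per array. The sources used here do not say how they were normalized, and the log base was read from the range of the values. Of 12488 probe sets 66 controls were left out and 12422 tested. Of these 10833 carry 1 gene symbol in the platform table, 396 several and 1193 are unnamed here. Symbols were updated through Entrez IDs for 10817, and 8251 genes were read by their brightest probe set over 12 liver arrays. Differences were fitted with limma 3.58.1 in R 4.3.3 (lmFit, eBayes), with Benjamini-Hochberg adjustment over all tested probe sets, and the script was tested on simulated data. The tests of C57BL/6J against A/J and of liver against lung each use 12 arrays. Alternatives were other sample sets, median centring, quantile and cyclic loess normalization, a filter on low values, a variance trend, a replicate block and leaving out each array. The named genes are the 15 largest called differences in each direction without overlap between the times and the 10 lowest p of each difference between groups. All members of the clock, cholesterol, urea cycle and metallothionein lists are named too. For the other lists the rule was up to 8 called members with the lowest p, but not every list or member it picks is named. The lists of glycolysis, solute carriers, nuclear receptors, cytoskeleton, heme synthesis, interferon response and thyroid hormone response have calls but are not described in the text. The same holds for stellate, endothelial, periportal and pericentral markers. Of the heat shock lists only some cytosolic members and no mitochondrial ones are named. Any other gene was named after its values were seen. The comparison, members and 54 lists were chosen with earlier results of these data known. Promoters are from RefSeq, GRCm38.p6.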

Additional observations from a re-analysis of the deposited data

Results flagged for a closer look

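The time difference of C57BL/6J liver departed from that of A/J liver in 609 probe sets, by a test of the difference itself. The genes with the lowest p were Cyp2b9 (-2.78), Hsp90aa1 (1.46), Rhpn2 (1.62), Lpin2 (1.52), Hsdl2 (1.57), Sec23a (0.97), Tlcd4 (1.29), Gstm6 (-0.80), Vnn1 (2.48) and Caprin1 (0.84), each a C57BL/6J minus A/J value on the log2 scale. Among genes of fatty acid oxidation 25 of 32 passed the same test. Both strains share the runs, and C57BL/6J liver arrays enter this test and the next one.

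The time difference of C57BL/6J liver departed from that of C57BL/6J lung in 2915 probe sets. The genes with the lowest p were Aqp1 (0.90), Ttr (1.39), 1110032A03Rik (2.62), Clta (1.15), Tmem97 (0.96), Tln1 (0.99), Vamp7 (-0.98), Ppp1cb (1.21), Arhgap39 (-0.79) and Speg (1.17), each a liver minus lung value on the log2 scale.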

How the results depend on the processing

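Calls at adjusted p below 0.05 numbered 5921 probe sets in liver (2493 higher, 3428 lower), from 4049 to 5839 with single arrays left out (1930 to 2410 higher, 2119 to 3429 lower), 3675 with low probe sets filtered out (1617 lower), and with 2193 lower by cyclic loess, which was chosen after seeing the data. Without time 2 replicate 3 the lower calls were 2119. For C57BL/6J minus A/J, 609 calls became 369 to 581 (302 to 429 higher, 65 to 152 lower), with 387 without time 2 replicate 1 (322 higher, 65 lower), 71 lower without time 2 replicate 2, 373 without time 2 replicate 3 (303, 70), 369 without time 1 replicate 3 (302, 67), and 246 lower with all 48 arrays. For liver minus lung, 2915 calls became 1582 to 2678 (896 to 1291 higher, 686 to 1387 lower), with 1582 without liver time 2 replicate 3 (896 higher, 686 lower), 1927 after the filter (661 lower), 2299 lower with all 48 arrays, 719 lower by cyclic loess, and 1674 with lung time 1 by replicate 1 alone (951 higher, 723 lower), an alternative also chosen after seeing the data. To see whether same-numbered arrays belong together, the mean of its group was first subtracted from each probe set. These deviations of same-numbered arrays of time 2 and time 1 correlated at 0.0686, -0.0166 and 0.0202. Those of other-numbered arrays correlated at -0.0559 to 0.0301, so the arrays were not treated as pairs. With the replicate block 5612, 666 and 3705 probe sets were called in the 3 comparisons. The cause of these changes was not tested, except that the filter tests fewer probe sets and the left-out arrays leave fewer samples. Over 184 named genes, each read by its brightest probe set, 2310 of the values by gene and setting kept direction and side of the threshold, 121 lost the call, 38 gained it and 77 turned sign. With quantile normalization the difference turned sign for Ahsg (-0.121), Alb (-0.0059), Apoa1 (-0.0139), Arg1 (-0.0344), C8g (-0.0834), Calr (0.0479), Csnk1d (-0.110), Csnk1e (0.0507), Cyp4a10 (-0.151), Cyp4a14 (-0.117), Hsp90b1 (-0.116), Insig1 (0.128), Mrm3 (0.0338), Pald1 (0.0121), Per2 (0.144), Psmb10 (-0.0454), Slc30a1 (0.0796), Tgfbi (0.0341), Tm7sf2 (-0.162), Wbp11 (-0.0366). With cyclic loess the difference turned sign for Ahsg (-0.254), Alb (-0.231), Apoa1 (-0.210), Arg1 (-0.158), C8g (-0.0392), Calr (0.0516), Cps1 (-0.0048), Csnk1d (-0.0848), Csnk1e (0.0834), Cyp4a10 (-0.110), Cyp4a14 (-0.104), Hsp90b1 (-0.0531), Insig1 (0.108), Mrm3 (0.0769), Pald1 (0.0497), Pcsk5 (0.0183), Per2 (0.127), Per3 (0.0362), Psmb10 (-0.0215), Slc30a1 (0.0995), Tgfbi (0.0710), Tm7sf2 (-0.122), Wbp11 (-0.0169). With median centring the difference turned sign for Csnk1e (0.0471), Insig1 (0.0039), Mvk (0.0065), Pald1 (0.0193), Pcsk5 (0.0058), Per2 (0.0221), Per3 (0.0183), Slc39a4 (0.0123), Tgfbi (0.0323), Usp2 (0.0094). Leaving out single arrays gave both signs for Arntl (-0.0329 to 0.219), Bhlhe40 (-0.266 to 0.332), Cry1 (-0.421 to 0.0073), Csnk1e (-0.190 to 0.207), Insig1 (-0.132 to 0.0459), Lss (-0.0015 to 0.189), Mrm3 (-0.123 to 0.0382), Pald1 (-0.0647 to 0.0094), Pcsk5 (-0.126 to 0.0436), Per1 (-0.0548 to 0.0664), Per2 (-0.124 to 0.0445), Prss2 (-0.424 to 2.762), Psmb10 (-0.0199 to 0.124), Slc30a1 (-0.170 to 0.0552), Slc39a4 (-0.110 to 0.0023), Tgfbi (-0.106 to 0.0513), Tm7sf2 (-0.0288 to 0.155), Usp2 (-0.0976 to 0.0209). The number of arrays, 3 a group, and the ceiling at time 1 limit what can be detected.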

Other observations

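Nnt, which encodes the mitochondrial transhydrogenase, was chosen after its values were seen. It read 10.08, 10.20 and 10.17 in C57BL/6J liver at time 2, against 11.10, 10.85 and 10.99 at time 1 (-0.83 ± 0.09, adjusted p = 0.000673 by limma). Its A/J liver difference was 0.09 and its C57BL/6J lung difference -0.68, and the C57BL/6J minus A/J difference was -0.92 (adjusted p = 0.0017). The reason was not tested.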
